A study of Mus musculus with 40 samples.

Results

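The 10 genes described here carry signals of the Nodal and BMP branches of the TGF-beta family or answer to them in mouse embryonic stem cells (mESCs): *Nodal*, *Bmp4*, *Tdgf1*, *Lefty1*, *Lefty2*, *Skil*, *Smad7*, *Id1*, *Id2* and *Id3*. They were chosen by name from the 55536 genes counted. RNA was taken from mESCs of 3 genotypes after 4 h in DMSO, the solvent, or with 900 nM of the ATR kinase inhibitor AZD6738 (ATRi). WT cells gave 2 biological replicates. The *Ccnc* KO lines were D1, G2 and H5, and the *Cdk8* KO lines B9, H4 and C8. *Ccnc* encodes Cyclin C and *Cdk8* the kinase it activates, both parts of the kinase module of Mediator. The knockout clones were grown from single cells of a Cas9-expressing mESC line after transfection of guide RNA, and mESCs were kept on gelatin. Each clone is therefore 1 line, whose DMSO and ATRi libraries are not independent of each other. Libraries were pooled for sequencing in a *Ccnc* multiplex and a *Cdk8* multiplex, named for the knockout in each, and the WT libraries were run in both. WT replicate 2 under ATRi was left out of the tests. Each test of genotype thus set 6 knockout libraries of 3 clones against 3 WT libraries.

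Nodal and the related activins bind receptors that phosphorylate SMAD2 and SMAD3, whereas BMP4 acts through SMAD1 and SMAD5, and both pairs bind SMAD4 and enter the nucleus. CDK8 is known to phosphorylate the linker that joins the folded parts of these SMADs, which affects both their activity and their turnover. In mESCs grown with serum and LIF, BMP signals sustain the *Id* genes, and Nodal sustains *Lefty1*, *Lefty2*, *Skil* and *Smad7*, most of which feed back on the pathway.

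The libraries held between 30899823 and 67274049 counts, with a median of 41972557, and each of the 10 genes had at least 303 counts in every library. Values are given as CPM, which are counts scaled to a common library size, with TMM factors. *Ccnc* was at 4.24 to 7.40 CPM in *Ccnc* KO libraries and at 43.6 to 45.1 CPM in the WT libraries beside them (log2 fold change -2.93, SE 0.13, edgeR adjusted p = 1.14e-08). *Cdk8* mRNA was at 52.3 to 64.6 CPM in *Cdk8* KO libraries and at 71.2 to 78.6 CPM in WT (log2 fold change -0.35, SE 0.06, adjusted p = 0.0112). The WT replicate 2 library under ATRi had 57.7 CPM of *Cdk8* in that multiplex, within the knockout range. The pluripotency markers were expressed throughout, with summed levels over 12 genes of 4173 to 4633 CPM in *Ccnc* KO, 3383 to 4423 CPM in *Cdk8* KO and 4768 to 5064 CPM in WT libraries. Of these 12, 4 were called lower and 1, *Tbx3* (log2 fold change 0.63, adjusted p = 0.000902), higher in *Ccnc* KO cells. Of all genes, 5.28% were called lower and 7.01% higher there. The lower ones, with their log2 fold changes, were *Zfp42* (-0.46, adjusted p = 0.0032), *Klf4* (-0.41, adjusted p = 0.000341), *Esrrb* (-0.32, adjusted p = 0.00207) and *Klf2* (-0.28, adjusted p = 0.0194). In *Cdk8* KO cells *Klf2* (-0.50, adjusted p = 0.0468) and *Sox2* (-0.23, adjusted p = 0.023) were called lower, as were 2.03% of all genes. These and the other marker genes named were picked after their values were seen.

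Markers of other cell types moved with genotype. Of 14 primitive endoderm markers 13 were tested, and the estimates of all 13 were above 0 in both knockouts. In *Ccnc* KO cells 11 of them were called higher, against 7.01% of all genes. Their summed level was 669.8 to 850.5 CPM in *Ccnc* KO libraries, against 360.2 to 403 CPM in WT. In *Cdk8* KO libraries it was 787 to 1149 CPM, against 365 to 401 CPM. *Ttr*, a late endoderm marker, had no count in the WT libraries. Of 7 trophectoderm markers, 4 were called higher in *Ccnc* KO and 1 of 6 tested in *Cdk8* KO cells, against 7.01% and 2.28% of all genes. The 4 were *Elf5* and the keratin genes *Krt7*, *Krt8* and *Krt18*. The factors *Gata3* (0.87, adjusted p = 0.125), *Cdx2* (-0.09, adjusted p = 0.868) and *Tfap2a* (-0.37, adjusted p = 0.324) were not called in *Ccnc* KO cells. The 7 markers summed to 31.2 to 61.6 CPM in *Ccnc* KO and 14.6 to 15.6 CPM in WT libraries. Among the *Cdk8* KO clones, H4 stood apart, with 248 and 258 CPM of these markers against 30.9 to 57.6 CPM in B9 and C8. H4 also had 98.4 and 112 CPM of neuroectoderm markers, against 35.2 to 52.9 CPM in B9 and C8. Its fibroblast markers were at 22.6 and 25.7 CPM, against 8.92 to 10.9 CPM. The pluripotency markers of H4 were lowest, at 3383 and 3510 CPM against 3949 to 4423 CPM. Of the mesoderm and fibroblast markers none was called in either knockout, and neuroectoderm markers summed to 29.5 to 41.0 CPM in *Ccnc* KO, 35.2 to 112 CPM in *Cdk8* KO and 47.9 to 54.1 CPM in WT libraries. Of these, *Pax6* (-1.35, adjusted p = 1.44e-06) and *Sox1* (-0.62, adjusted p = 0.00294) were called lower among 5 tested in *Ccnc* KO, and *Hes5* (-1.61, adjusted p = 0.0416) among 6 tested in *Cdk8* KO cells. Of all genes, 5.28% and 2.03% were called lower. The part of such cells in the results below was not tested. In RNA from whole cultures, fewer cells of a type and less RNA per cell cannot be told apart.

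In GRCm38, *Tdgf1* lies on chromosome 9 (110939603 to 110946158), *Bmp4* on 14 (46383520 to 46390669), *Nodal* on 10 (61417972 to 61425338) and *Skil* on 3 (31095058 to 31122577). *Lefty2* (180893108 to 180899103) and *Lefty1* (180935022 to 180938400) are neighbours on chromosome 1. *Id1* is on chromosome 2 (152736251 to 152737410), *Id2* on 12 (25093799 to 25097140), *Id3* on 4 (136143497 to 136145755) and *Smad7* on 18. None overlaps an exon of another gene on its strand, the strand that was counted.

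In WT cells under DMSO, the level per kilobase of exon spanned a wide range. *Tdgf1* was highest, at 142 and 160.2 CPM per kb in the 2 replicates of the *Ccnc* multiplex, followed by *Id1* (103 and 103) and *Bmp4* (42.9 and 45.7). *Lefty1* (24.7 and 30.2) and *Nodal* (22.7 and 23.6) came next, and their ranges overlapped when the same libraries were sequenced in the other multiplex. *Id3*, *Lefty2* and *Skil* lay together between 12.1 and 14.7 CPM per kb and were not separated by the replicates. *Smad7* (11.1 and 12.03) and *Id2* (4.73 and 5.03) were lowest. The same 4 WT libraries gave values that differed between the sequencing runs by 0.921 to 1.11 times over the 10 genes.

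**Figure D1:**
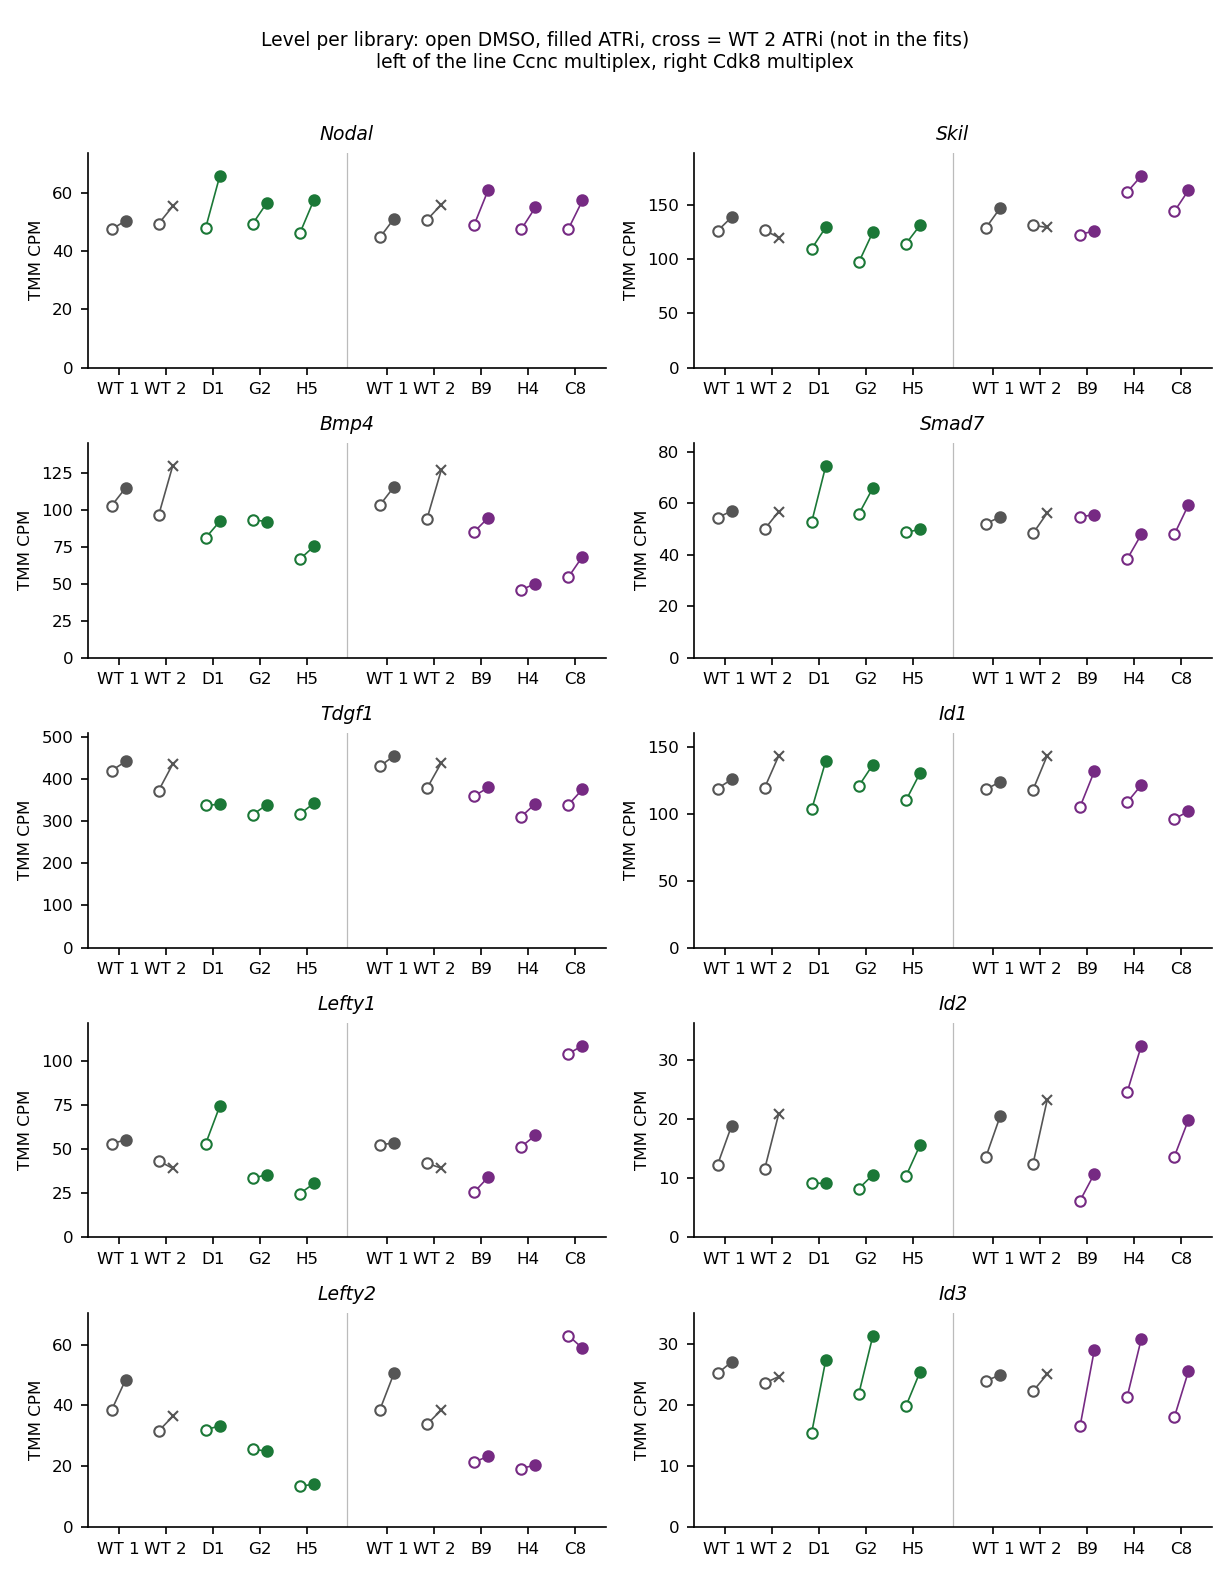
TMM-scaled CPM of each gene (y axis, from 0) in every library, with open circles for DMSO, filled circles for ATRi, crosses for WT replicate 2 under ATRi (not in the tests) and a line joining the libraries of one clone or replicate. *Lefty1* and *Lefty2* of clone C8 and *Id2* of clone H4 lie above all other lines, while *Tdgf1* lies lower in the knockout clones than in WT 1.

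*Tdgf1* was lower in both knockouts than in WT, and *Bmp4* and *Id2* were lower in *Ccnc* KO cells. This test counts both libraries of a clone. With libraries summed per clone, *Tdgf1* in *Ccnc* KO cells was still called (-0.27, adjusted p = 0.0306). By that fit *Bmp4* (-0.30, adjusted p = 0.0996) and *Id2* (-0.38, adjusted p = 0.188) were not, nor was *Tdgf1* in the *Cdk8* KO clones (-0.21, adjusted p = 0.349). With clone as a random effect (limma), the *Ccnc* KO calls held and *Tdgf1* in *Cdk8* KO did not pass (-0.27, adjusted p = 0.0852). None of the 10 genes was called higher in a knockout, and none passed with a change of 2-fold, as 1.94% of all genes did for *Ccnc* KO and 1.05% for *Cdk8* KO. In the test of genotype beside treatment, 3 of the 10 genes were called lower in *Ccnc* KO cells at an adjusted p under 0.05 and 1 was called lower in *Cdk8* KO cells. Over all genes tested, 12.3% were called in *Ccnc* KO (5.28% lower, 7.01% higher) and 4.31% in *Cdk8* KO cells (2.03% lower, 2.28% higher). A count of 1 of 10 or 3 of 10 is small to set against that background. The median log2 fold change of the 10 genes was -0.26 in *Ccnc* KO cells and -0.09 in those with *Cdk8* knocked out, and that of all genes was 0.00 and 0.01.

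*Tdgf1* encodes Cripto, the cell surface co-receptor through which Nodal binds its receptors. In the *Ccnc* multiplex its level under DMSO was 420.0 and 373 CPM in the WT replicates and 337, 316 and 317 CPM in clones D1, G2 and H5. Under ATRi it was 442 CPM in WT replicate 1 and 340.5, 339 and 343 CPM in the clones. All 6 knockout libraries thus lay below all 3 WT libraries, as did 6.92% of all genes tested, while 7.53% lay wholly above. The log2 fold change was -0.32 (SE 0.05, 95% interval -0.44 to -0.21, edgeR adjusted p = 0.00128). In the *Cdk8* multiplex, WT cells had 430.5 and 378 CPM under DMSO and 456 CPM under ATRi. Clones B9, H4 and C8 had 360 CPM, 311 CPM and 339 CPM under DMSO and 380.1, 342 and 376 CPM under ATRi, so that 5 of 6 libraries lay below all WT libraries and B9 under ATRi just above the lowest. In that multiplex 6.07% of all genes had every knockout library below WT and 6.59% every one above. There the log2 fold change was -0.29 (SE 0.06, 95% interval -0.42 to -0.15, adjusted p = 0.0326). Without clone C8 the *Cdk8* KO value was -0.30 with an adjusted p of 0.116, and without WT replicate 1, the higher of the WT replicates, it was -0.18 (adjusted p = 0.613). In *Ccnc* KO cells it was -0.20 (adjusted p = 0.257) without that replicate. Of the 50-base stretches of *Tdgf1* transcripts, 8.86% are also in the pseudogene *Tdgf1-ps1*. A part of the *Tdgf1* reads may thus have been lost or split at counting.

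*Bmp4* encodes the BMP ligand that mESCs themselves make. In the *Ccnc* multiplex it was at 103 and 96.4 CPM in WT cells and at 81.2, 93.3 and 66.7 CPM in D1, G2 and H5 under DMSO. With ATRi these values were 115 CPM in WT replicate 1 and 92.3, 92.2 and 75.4 CPM. All knockout libraries lay below all WT libraries, as for 6.92% of all genes tested, while 7.53% lay wholly above. The log2 fold change was -0.34 (SE 0.09, 95% interval -0.54 to -0.15, adjusted p = 0.0234). Without WT replicate 1 it was -0.26 (adjusted p = 0.458). In the *Cdk8* multiplex, WT cells had 103 and 94.1 CPM under DMSO, B9 85.2 CPM, H4 45.8 CPM and C8 54.4 CPM. Under ATRi, WT replicate 1 had 116 CPM and the same clones 94.8, 50.2 and 68.4 CPM. H4 and C8 were far below WT and B9 just below it, and 5 of 6 libraries lay below all WT libraries. How many of all genes had 5 of 6 below was not counted. The estimate of -0.69 (SE 0.21, 95% interval -1.15 to -0.22) did not pass the test with these clones (adjusted p = 0.0955). Without B9 it was -0.98 (adjusted p = 0.00358). Without H4, the clone set apart by its markers, it was -0.50 (adjusted p = 0.0639). With WT replicate 2 under ATRi included it was -0.72 (adjusted p = 0.0415).

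*Nodal*, the ligand of the SMAD2 and SMAD3 branch, was nearly level between genotypes under DMSO. It was at 47.5 and 49.5 CPM in WT cells and at 48.1, 49.5 and 46.2 CPM in D1, G2 and H5. The *Cdk8* KO clones B9, H4 and C8 had 49.1, 47.5 and 47.6 CPM, against 44.8 and 50.8 CPM in WT cells of that multiplex. The log2 fold change beside treatment was 0.09 (95% interval -0.06 to 0.24) for *Ccnc* KO and 0.07 (95% interval -0.07 to 0.21) for *Cdk8* KO, and neither was called.

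The 250 bases before the start sites of *Tdgf1* and *Bmp4*, called lower in *Ccnc* KO cells, and of *Nodal*, not called, are shown so that the promoters can be compared. They come from RefSeq (GRCm38.p6), read 5′ to 3′ on the gene's strand, at chr9:110946159-110946408 for *Tdgf1* and chr14:46390670-46390919 for *Bmp4*, both on the minus strand, and at chr10:61417722-61417971 for *Nodal* on the plus strand. The capitals mark the SMAD box CAGAC, which was searched on both strands (GTCTG on the other).
Tdgf1: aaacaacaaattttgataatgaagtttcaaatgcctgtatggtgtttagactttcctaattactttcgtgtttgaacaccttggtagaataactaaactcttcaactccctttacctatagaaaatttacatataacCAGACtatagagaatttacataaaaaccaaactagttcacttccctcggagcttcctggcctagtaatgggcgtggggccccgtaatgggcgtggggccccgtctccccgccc
Bmp4: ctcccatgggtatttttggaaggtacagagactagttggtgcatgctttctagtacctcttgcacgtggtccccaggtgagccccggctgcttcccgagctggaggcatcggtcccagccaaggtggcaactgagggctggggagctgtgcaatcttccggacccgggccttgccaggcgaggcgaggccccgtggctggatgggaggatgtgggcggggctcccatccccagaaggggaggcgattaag
Nodal: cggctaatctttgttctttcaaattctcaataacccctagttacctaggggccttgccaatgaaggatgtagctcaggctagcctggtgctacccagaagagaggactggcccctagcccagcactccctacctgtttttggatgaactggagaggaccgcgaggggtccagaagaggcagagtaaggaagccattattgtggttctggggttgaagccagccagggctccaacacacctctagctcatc
The *Tdgf1* window held 1 SMAD box, 113 bases before the start, and the other windows shown held none. Such a box was present in 42.2% of 32841 windows of the same length. The palindromic element GTCTAGAC (0.167% of windows), the GC-rich SMAD element GGCGCC (9.59%) and the FOXH1 motif AATNCACA (3.19%), searched on both strands, were in none of the windows shown, and these motifs do not overlap each other. The *Tdgf1* window was 42.0% G or C, *Nodal* 53.2% and *Bmp4* 63.2%, and the median over all windows was 52.4%. *Id2* and *Id3* were also matched, but 161 of the 250 bases of the *Id2* window and all 250 of the *Id3* window are annotated as exon of the gene itself, so neither is shown or compared as upstream sequence. The former held 1 GGCGCC and the latter 2 SMAD boxes. *Lefty1*, *Lefty2*, *Skil*, *Smad7* and *Id1* were not matched.

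**Figure D2:**
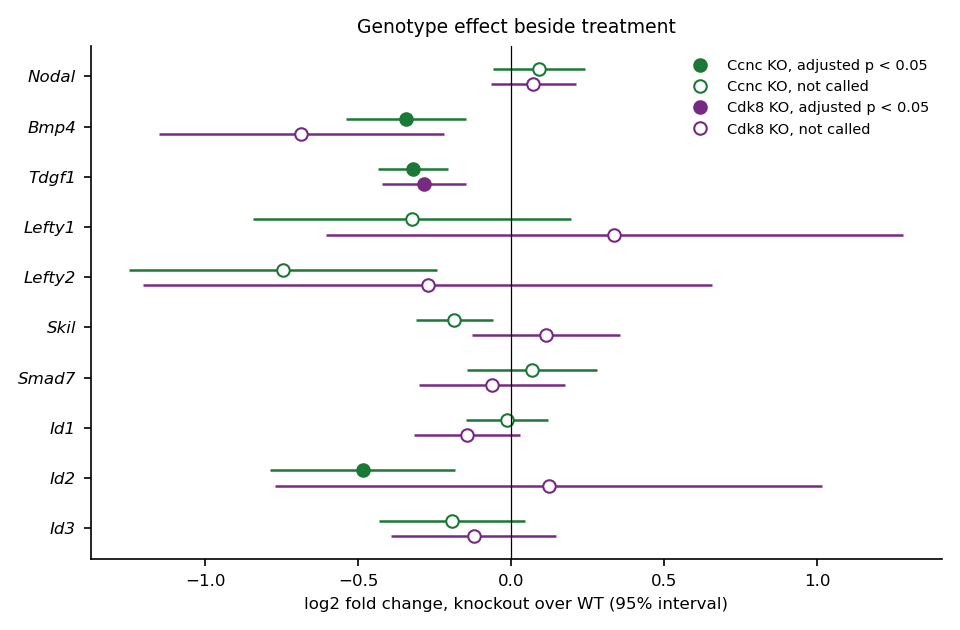
Log2 fold change of knockout over WT beside treatment for each gene (x axis), with 95% intervals, for *Ccnc* KO (green) and *Cdk8* KO (purple); filled points are called at an adjusted p under 0.05. *Tdgf1* is called at -0.32 and -0.29, and the *Lefty1*, *Lefty2* and *Id2* intervals of *Cdk8* KO are the widest.

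*Lefty1* and *Lefty2* encode secreted antagonists that bind Nodal and its co-receptor. They varied widely among the clones of one genotype. Under DMSO, *Lefty1* was at 53.1 and 43.4 CPM in WT cells of the *Ccnc* multiplex and at 53.2, 33.6 and 24.9 CPM in D1, G2 and H5. In the *Cdk8* multiplex it was at 52.5 and 42.0 CPM in WT cells and at 25.7 CPM in B9, 51.5 CPM in H4 and 104 CPM in C8. B9 was at less, and C8 at more, than any WT library. *Lefty2* was at 38.4 and 31.6 CPM in WT cells and at 32.0, 25.7 and 13.5 CPM in D1, G2 and H5. In the other multiplex it was at 38.7 and 33.9 CPM in WT cells, 21.4 CPM in B9, 19.3 CPM in H4 and 62.9 CPM in C8. The order of D1, G2 and H5 was the same for both genes, whereas in H4 *Lefty1* was near WT and *Lefty2* low.

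Neither gene was called for genotype with all clones in the test. *Lefty2* had a log2 fold change of -0.74 (SE 0.24, adjusted p = 0.0519) in *Ccnc* KO cells, which passed the test without D1 (-1.04, adjusted p = 0.00738) and without H5 (-0.47, adjusted p = 0.0244). In *Cdk8* KO cells it was -0.27 (SE 0.42), and -0.99 (adjusted p = 0.0132) without C8. For *Lefty1* the value was -0.32 (SE 0.24) in *Ccnc* KO cells, and -0.73 (adjusted p = 0.000879) without D1. In *Cdk8* KO cells it was 0.34 (SE 0.42), and turned to -0.27 without C8. The genes resemble each other: 17.9% of the 50-base stretches of *Lefty1* transcripts are also in *Lefty2*, so that a part of their reads may have been lost or split at counting.

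Within each knockout, the term for clone was tested beside treatment, a test chosen after the values had been seen. The only libraries of a clone are its DMSO and ATRi libraries. These p-values thus do not measure the spread between separate cultures of a clone. Among *Ccnc* KO clones it called *Lefty1* and *Lefty2* (adjusted p = 0.000129 for each, edgeR), 2 of the 10 genes where 0.793% of all genes were called. Among *Cdk8* KO clones it called 9 of the 10, against 32.5% of all genes, and *Nodal* was the one not called (adjusted p = 0.343). Without H4 the count was 6, and 1371 genes were called in all instead of 5576. The order of adjusted p began with *Lefty2* (1.35e-09), *Lefty1* (2.23e-09), *Id2* (3.94e-08) and *Bmp4* (1.73e-07). Under DMSO the highest clone exceeded the lowest by 4.05 times for *Lefty1* (C8 over B9), 3.94 times for *Id2* (H4 over B9), 3.26 times for *Lefty2* (C8 over H4) and 1.86 times for *Bmp4* (B9 over H4). The WT replicates of that multiplex differed by 1.25 times or less in these genes.

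**Figure D3:**
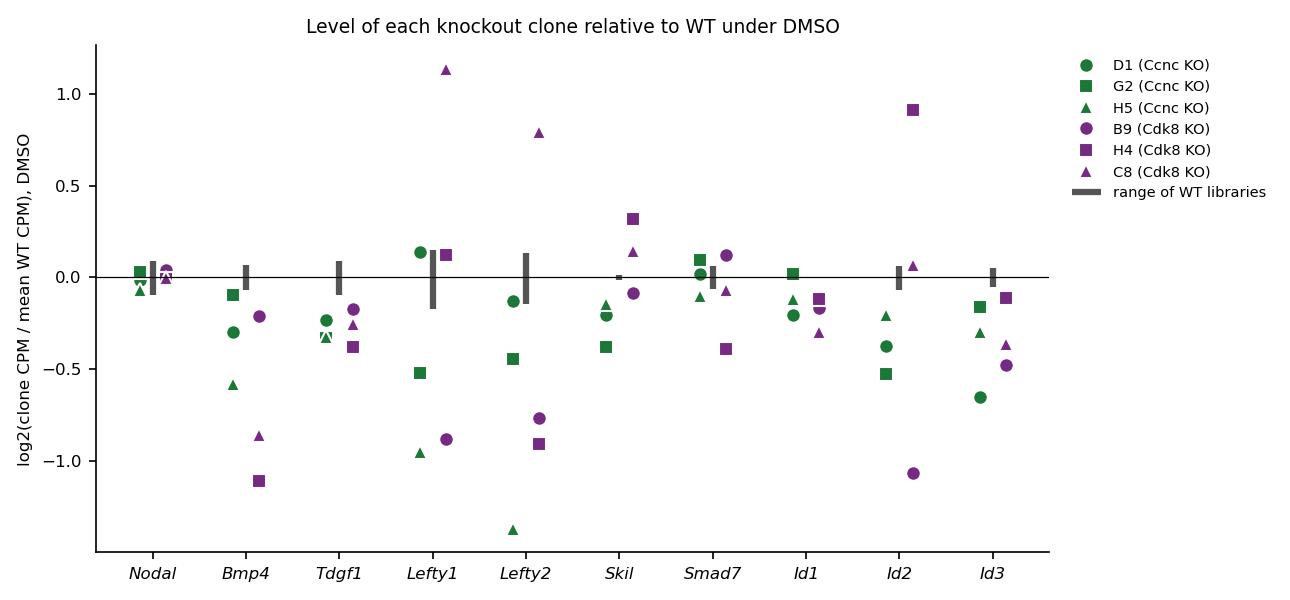
Log2 ratio of each knockout clone to the mean of the WT replicates of its multiplex under DMSO (y axis) for each gene, with grey bars for the range of the WT replicates. Clones of one genotype lie on both sides of WT for *Lefty1*, where C8 is at 104 CPM and B9 at 25.7 CPM, and for *Id2*, whereas *Tdgf1* is below WT in all 6 clones. How many of all genes lie below WT in all 6 was not counted.

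*Skil* encodes SnoN, a corepressor bound by SMAD complexes, and *Smad7* an inhibitory SMAD that blocks the receptors. Under DMSO *Skil* was at 97.01 to 114 CPM in *Ccnc* KO clones and at 126 and 126 CPM in WT cells. Over both treatments, 4 of 6 *Ccnc* KO libraries lay below all WT libraries, which was not counted over all genes. The *Cdk8* KO clones had it at 123 CPM in B9, 144 CPM in C8 and 162 CPM in H4, and WT cells had 129 and 131 CPM. The log2 fold changes beside treatment were -0.19 (SE 0.06, adjusted p = 0.0534) and 0.11 (SE 0.11, adjusted p = 0.594). The former passed with another scaling (-0.19, adjusted p = 0.048), and the latter without B9 (0.22, adjusted p = 0.0491). *Smad7* was at 48.7 to 55.8 CPM in *Ccnc* KO clones under DMSO and at 49.97 and 54.4 CPM in WT cells. In B9, C8 and H4 it was at 54.7, 47.9 and 38.4 CPM, against 48.3 and 52.2 CPM in WT cells. Its log2 fold changes were 0.07 (95% interval -0.15 to 0.28) and -0.06 (95% interval -0.30 to 0.18).

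The ID proteins, the classical targets of SMAD1 and SMAD5, bind E proteins and keep them from DNA. *Id2*, the lowest of them, was at 12.3 and 11.5 CPM in WT cells and at 9.20, 8.27 and 10.3 CPM in D1, G2 and H5 under DMSO. Under ATRi it was at 18.9 CPM in WT replicate 1 and at 9.13, 10.6 and 15.6 CPM in these clones. Of the knockout libraries 5 of 6 lay below all WT libraries, which was not counted over all genes. The log2 fold change was -0.49 (SE 0.14, 95% interval -0.79 to -0.18, adjusted p = 0.0362). It did not pass without G2 (-0.41, adjusted p = 0.134), without WT replicate 1 (-0.31, adjusted p = 0.567) or without WT replicate 2 (-0.55, adjusted p = 0.0548). In *Cdk8* KO cells *Id2* followed the clone, with 6.24 CPM in B9, 13.7 CPM in C8 and 24.6 CPM in H4 against 13.6 and 12.5 CPM in WT cells under DMSO. With ATRi they had 10.7, 19.9 and 32.4 CPM, against 20.4 CPM in WT replicate 1. The log2 fold change of 0.12 (95% interval -0.77 to 1.02) became -0.41 without H4 (adjusted p = 0.368).

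*Id1* and *Id3* were not called for genotype. Under DMSO *Id1* was at 104 to 121 CPM in *Ccnc* KO, 96.4 to 109 CPM in *Cdk8* KO and 118 to 120 CPM in WT cells. The log2 fold changes of *Id1* were -0.01 (95% interval -0.15 to 0.12) and -0.14 (95% interval -0.32 to 0.03). *Id3* under DMSO was at 15.5 to 21.8 CPM in *Ccnc* KO and 16.6 to 21.4 CPM in *Cdk8* KO clones, and at 22.3 to 25.1 CPM in WT cells of both multiplexes. Its log2 fold change beside treatment was -0.19 (95% interval -0.43 to 0.05) for *Ccnc* KO and -0.12 (95% interval -0.39 to 0.15) for *Cdk8* KO. From the DMSO libraries alone it was -0.34 (adjusted p = 0.212) for *Ccnc* KO and -0.32 (adjusted p = 0.413) for *Cdk8* KO.

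Whether the 2 knockouts differ was tested over both multiplexes, with the WT libraries carrying the term for the run. None of the 10 genes was called by edgeR or by DESeq2, where edgeR called 0.00545% of all genes. *Skil* alone had an unadjusted p under 0.05. Its log2 difference, *Cdk8* KO minus *Ccnc* KO, was 0.29 (95% interval 0.02 to 0.55, adjusted p = 0.998). For *Tdgf1* the difference was 0.04 (95% interval -0.12 to 0.21). For *Bmp4* it was -0.33 (95% interval -0.83 to 0.18), and for *Id2* 0.62 (95% interval -0.31 to 1.55). Both genotype tests rest on the same WT libraries, so that the values of the knockouts are not independent. The fit over both multiplexes enters each WT library once per run, and 2 runs of a library are not separate replicates, so that these intervals are too narrow and the p-values too small.

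Under ATRi the estimates of the 10 genes leaned upwards, and how many were called depended on whether clones were paired. The estimates of all 10 were above 0 in both multiplexes, and their median (log2) was 0.23 in the *Ccnc* and 0.17 in the *Cdk8* multiplex, against -0.01 for all genes in each. The other pathway genes tested, described below, did not share this lean, with medians of -0.06 and -0.03. Without regard to clone, edgeR called none of the 10 in either multiplex, where 1.11% and 0.0855% of all genes were called (0.366% and 0.0374% higher), and 6 and 3 of the 10 had an unadjusted p under 0.05. Many other genes had such a p. The last of the 6, *Smad7*, ranked 2081 of 18577 genes by p, and the last of the 3, *Tdgf1*, ranked 1925 of 18721. DESeq2 called 5 and 2, and its share over all genes is not given here.

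The DMSO and ATRi libraries of a clone come from the same line, so that clone or WT replicate can be taken as a block. In this paired fit, edgeR called 2 of the 10 genes higher in the *Ccnc* multiplex, *Id3* and *Skil*, against 0.964% of all genes. In the *Cdk8* multiplex it called 8 higher, all but *Lefty1* and *Lefty2*, against 4.87% of all genes. None was called lower, as 1.46% and 6.39% of all genes were. In the *Ccnc* multiplex the count was 0 without G2 and 0 without H5, and 5 with DESeq2. In the *Cdk8* multiplex it was 4 without H4 (*Nodal*, *Bmp4*, *Id2* and *Id3*) and 6 to 8 without another clone or WT replicate 1. When WT replicate 2 under ATRi was included, the blocked counts were 0 and 3, the latter *Nodal*, *Bmp4* and *Id2*. WT replicate 1 is in both of these tests. For the alternatives to the paired fit, the share of all genes called is not given.

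*Id3* had the largest estimates within the knockout clones. With ATRi its level went from 15.5 to 27.4 CPM in D1, from 21.8 to 31.3 CPM in G2 and from 19.8 to 25.4 CPM in H5. The *Cdk8* KO clones went from 16.6 to 28.9 CPM (B9), from 21.4 to 30.8 CPM (H4) and from 18.0 to 25.5 CPM (C8). WT replicate 1 went from 25.1 to 27.0 CPM, and replicate 2, outside the tests, from 23.5 to 24.6 CPM in the *Ccnc* multiplex. The knockout libraries thus started below WT and ended near it or above it. The blocked log2 fold change was 0.44 (SE 0.10, adjusted p = 0.0356) in the *Ccnc* and 0.47 (SE 0.08, adjusted p = 0.00308) in the *Cdk8* multiplex. Within the knockout clones alone it was 0.56 (SE 0.10, adjusted p = 0.0223) for *Ccnc* KO and 0.61 (SE 0.07, adjusted p = 0.000363) for *Cdk8* KO.

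*Id2* went the same way, also in WT cells. ATRi raised the *Id2* level by 1.32 to 1.72 times in the *Cdk8* KO clones and by 1.4996 to 1.5396 times in WT replicate 1 over its runs. In *Ccnc* KO clones the ratio was 0.993 in D1, 1.28 in G2 and 1.51 in H5. The blocked log2 fold change was 0.56 (SE 0.06, adjusted p = 0.000151) in the *Cdk8* and 0.41 (SE 0.10, adjusted p = 0.0597) in the *Ccnc* multiplex. *Id1* was higher under ATRi in all 6 knockout clones, by 1.06 to 1.35 times, and its blocked log2 fold change was 0.16 (SE 0.04, adjusted p = 0.0209) in the *Cdk8* multiplex and 0.23 (SE 0.06, adjusted p = 0.0688) in the *Ccnc* multiplex.

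*Nodal* was higher under ATRi in every line, by 1.14 to 1.37 times in the knockout clones and 1.06 to 1.14 times in the WT replicates. The *Ccnc* KO clones D1, G2 and H5 had 65.9, 56.6 and 57.7 CPM under ATRi, and B9, H4 and C8 had 61.1, 55.1 and 57.4 CPM, each above its own DMSO library. For *Nodal* the blocked log2 fold change was 0.25 (SE 0.04, adjusted p = 0.00126) in the *Cdk8* and 0.26 (SE 0.07, adjusted p = 0.0594) in the *Ccnc* multiplex. *Bmp4* (0.19, SE 0.04, adjusted p = 0.00623) and *Tdgf1* (0.11, SE 0.03, adjusted p = 0.0224) were called in the *Cdk8* multiplex by the same fit.

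*Skil* was called in both multiplexes, with blocked log2 fold changes of 0.23 (SE 0.05, adjusted p = 0.0453) and 0.14 (SE 0.03, adjusted p = 0.0202). In WT replicate 2, outside the tests, its ratio of ATRi to DMSO was 0.947 and 0.985. *Smad7* was called in the *Cdk8* multiplex (0.18, SE 0.05, adjusted p = 0.0375) and not in the *Ccnc* multiplex (0.21, SE 0.07, adjusted p = 0.16). *Lefty1* and *Lefty2* were not called in either. The ratios of *Lefty2* in the knockout clones were 0.934 to 1.10, whereas WT replicate 1 had 1.26 and 1.31.

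**Figure D4:**
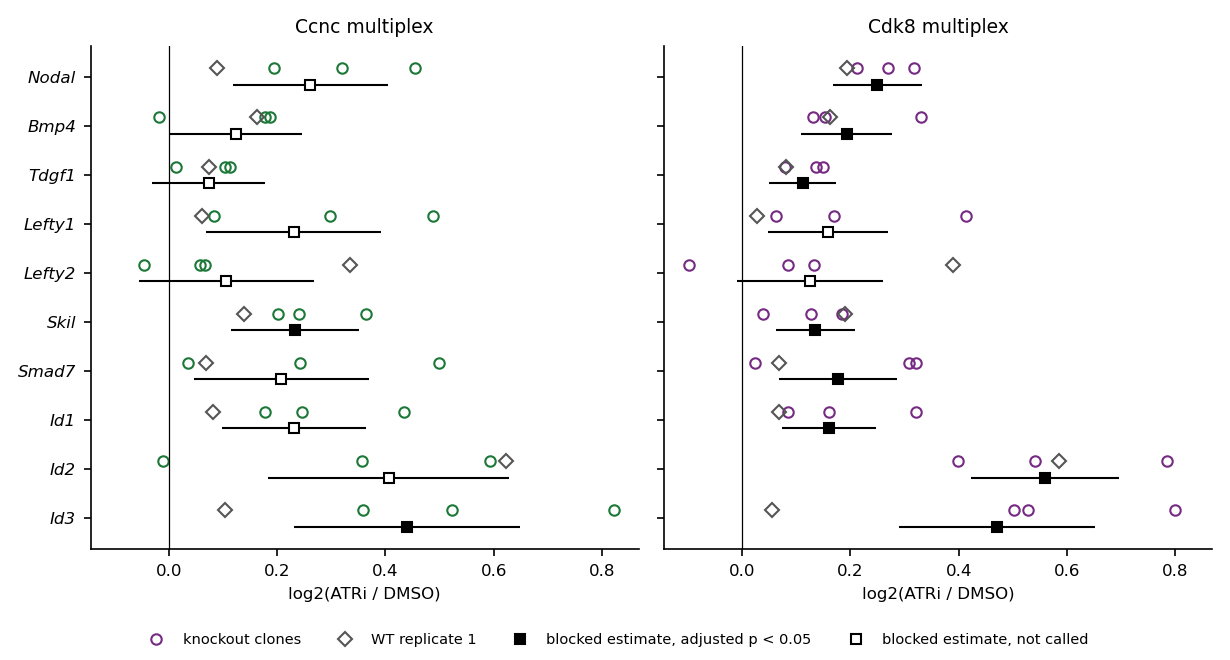
Log2 ratio of ATRi to DMSO (x axis) for each gene in each knockout clone (circles) and WT replicate 1 (diamonds), with the blocked estimate (squares) and its 95% interval; filled squares are called at an adjusted p under 0.05. Nearly all ratios lie above 0, *Id3* is higher in the clones than in WT replicate 1 and *Lefty2* lower.

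Counted by clone, 7 of the 10 genes were higher under ATRi in every *Ccnc* KO clone and 9 in every *Cdk8* KO clone. Of all genes with a mean of at least 1 CPM, 18.6% and 22.2% were. Within the *Ccnc* KO clones, edgeR without the block called 0.0894% of all genes and none of the 10 (5 had an unadjusted p under 0.05, and DESeq2 called 3). Within the *Cdk8* KO clones it called no gene at all (2 of the 10 had an unadjusted p under 0.05, and DESeq2 called 1). By edgeR the last of the 5, *Smad7*, ranked 1938 of 16776 genes by p. The 2, *Id3* and *Nodal*, ranked 34 and 72 of 17162. The share of all genes called by DESeq2 is not given here. With the clone as a block, 1 of the 10 was called in *Ccnc* KO clones, against 0.37% of all genes called higher and 0.28% lower. In *Cdk8* KO clones 6 were called, against 2.85% higher and 4.1% lower. The latter were *Nodal*, *Smad7*, *Bmp4*, *Id1*, *Id2* and *Id3*, and without H4 *Nodal*, *Id2* and *Id3* were called. The share of all genes called without H4 is not given.

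A difference in the response to ATRi between the genotypes was tested by the interaction of genotype and treatment, with 1 WT library under ATRi. None of the 10 genes, and 0 genes in all, were called by edgeR or DESeq2 in either multiplex, and *Id3* in the *Cdk8* multiplex was the 1 case among the 10 with an unadjusted p under 0.05 by edgeR. For *Id3* the interaction was 0.39 (95% interval -0.07 to 0.86, adjusted p = 1.00) in the *Ccnc* multiplex. In the *Cdk8* multiplex it was 0.50 (95% interval 0.03 to 0.97, adjusted p = 1.00). With the clone as a block the *Id3* values were 0.45 (SE 0.20, adjusted p = 1) and 0.56 (SE 0.13, adjusted p = 0.308). *Lefty2* had -0.32 (SE 0.17, adjusted p = 1) and -0.36 (SE 0.11, adjusted p = 0.704) in the same blocked fits. Neither gene passed the correction.

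The other genes of the pathway, 77 on lists of ligands, receptors, SMADs, antagonists, convertases, SMAD regulators, SMAD target genes and E proteins, were tested in the same way for genotype. In *Ccnc* KO cells 68 were tested, and 6 were called higher and 4 lower, against 7.01% and 5.28% of all genes. For *Cdk8* KO, 71 were tested, and 4 were called higher and 2 lower, against 2.28% and 2.03%. *Bmp6*, a BMP ligand, and *Acvrl1*, a BMP type I receptor, were called above 2-fold, both in *Cdk8* KO cells. *Bmp6* was at 1.19 to 2.28 CPM there and at 0.628 to 1.06 CPM in WT (log2 fold change 1.08, SE 0.24, adjusted p = 0.0378), and in *Ccnc* KO cells its log2 fold change was 0.95 (SE 0.19, adjusted p = 0.00448). *Acvrl1* was at 0.438 to 1.22 CPM, against 0.201 to 0.395 CPM in WT (1.41, SE 0.28, adjusted p = 0.023).

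Of the regulators inside the cell, *Ski*, the corepressor most like *Skil*, and *Tgif2*, another SMAD corepressor, were lower in both knockouts. They and the genes that follow were picked after their values were seen. *Ski* was at 116 to 140.3 CPM in *Ccnc* KO and 151 to 165 CPM in WT libraries, and at 121 to 134 CPM in *Cdk8* KO and 154 to 168 CPM in WT libraries. Its log2 fold changes were -0.35 (SE 0.06, adjusted p = 0.00176) and -0.34 (SE 0.05, adjusted p = 0.00662). Those of *Tgif2* were -0.23 (adjusted p = 0.018) and -0.30 (adjusted p = 0.0301). *Cited2*, a coactivator that SMADs induce, was higher in both (0.47, adjusted p = 0.000341, and 0.41, adjusted p = 0.0208), as was *Dusp9*, an ERK phosphatase kept up by BMP signals (0.47, adjusted p = 0.0028, and 0.27, adjusted p = 0.0426). *Eomes* (0.84, adjusted p = 0.00389) and *Tgfbi* (0.81, adjusted p = 0.00123), both on the list of SMAD2 and SMAD3 target genes, were called higher in *Ccnc* KO cells and not in *Cdk8* KO cells. *Eomes* was nevertheless at 3.34 to 5.29 CPM in *Cdk8* KO and 2.37 to 3.16 CPM in WT libraries. *Tgfbi* was at 3.16 to 8.01 CPM (median 7.52) in *Cdk8* KO and 3.47 to 3.98 CPM (median 3.59) in WT libraries. The test between the 2 knockouts called neither gene.

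Under ATRi none of these 77 genes was called without the block. In the blocked fit of the *Cdk8* multiplex 3 of 71 were called higher and 8 lower, against 4.87% and 6.39% of all genes. The receptors, factors and E proteins named next were chosen after their values were seen. The genes called higher were *T* (0.84, SE 0.20, adjusted p = 0.0157) and *Eomes* (0.36, SE 0.09, adjusted p = 0.0238), mesendoderm factors induced by Nodal, and the receptor *Acvr2b* (0.21, SE 0.05, adjusted p = 0.0217). The receptors *Acvr1* (-0.34, SE 0.07, adjusted p = 0.0104), *Acvr1b* (-0.26, SE 0.04, adjusted p = 0.00224) and *Tgfbr2* (-0.51, SE 0.15, adjusted p = 0.0413) were called lower. So were the E protein genes *Tcf3* (-0.14, SE 0.03, adjusted p = 0.0118) and *Tcf4* (-0.18, SE 0.05, adjusted p = 0.0322), whose products the ID proteins bind. *T* was at 0.412 to 2.65 CPM in *Cdk8* KO libraries. In the *Ccnc* multiplex *Acvr2b* alone of 68 was called (0.38, SE 0.07, adjusted p = 0.0207).

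The genes most like each of the 10 were found by the correlation of log2 CPM over 9 libraries in each multiplex, averaged, among 10365 genes. These libraries share clones, runs and WT cells, and the values are a description. *Tdgf1* was followed most closely by *L1td1* (mean r = 0.965) and *Mfsd14a* (0.96), and *Bmp4* by *Ppm1j* (0.954) and *Notch4* (0.945). *Lefty1* was most like *Hmgcs1* (0.943) and *Lss* (0.892), *Lefty2* like *Krt42* (0.849) and *Cenpv* (0.847), and *Nodal* like *B3galt4* (0.91) and *Ap4m1* (0.871). For *Skil* these were *Peg3* (0.919) and *Pim2* (0.912), and for *Smad7* *Gtf2f1* (0.893) and *Mybl2* (0.864). *Id1* was most like *Hexim1* (0.891) and *Kti12* (0.878), *Id2* like *Serpini1* (0.936) and *C1galt1* (0.911), and *Id3* like *Supt5* (0.856) and *Stub1* (0.853). Among the 10 themselves the closest pairs were *Skil* with *Id2* (0.839), *Bmp4* with *Tdgf1* (0.829), *Id1* with *Id3* (0.815) and *Lefty1* with *Lefty2* (0.784).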

How the data were processed

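The authors trimmed single-end, strand-specific poly(A) reads with Trimmomatic 0.38, aligned them to GRCm38.p6 with HISAT2 2.1.0 and counted them per gene and strand with featureCounts 2.0.1, set to ignore marked duplicates. They deposited these counts per lane without normalization, and also rlog values, which were not used here. Here the 2 lanes of each of 20 libraries were summed. Within each multiplex, counts were tested with edgeR 4.0.16 (R 4.3.3; quasi-likelihood test, TMM, filterByExpr) over all genes, with Benjamini-Hochberg adjusted p-values under 0.05 as calls. Genotype was tested beside treatment and ATRi beside genotype, then within knockout clones and as an interaction. All 10 genes passed the filter. Intervals are 95% and rest on the spread between libraries, and in the blocked fits on the spread left within clones and WT replicates. CPM were scaled by TMM over all 10 libraries of a multiplex, and log2 CPM used a prior count of 2.

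Clone and treatment libraries of one line were paired by the labels. The departure of each library from its group mean, correlated across genes between both treatments of one clone, gave an r of 0.021 to 0.184 in *Ccnc* KO and 0.178 to 0.627 in *Cdk8* KO clones. The highest r with another clone was -0.098 to 0.089 and -0.208 to 0.079. For G2 the r of its own pair, 0.021, was below its highest with another clone, 0.057, so that this check does not bear out that pair. The blocked fit was an alternative to the fits above. The other alternatives were DESeq2 1.42.0, DESeq2's size factors (RLE), no filter on low counts, WT replicate 2 under ATRi included, DMSO libraries alone, libraries summed per clone, clone as a random effect (limma 3.58.1) and each replicate left out. The blocked fit with WT replicate 2 under ATRi, the other settings of the blocked fits and the test of the clone term were added after results had been seen. The tests were checked on simulated data. The simulated libraries were drawn independently of each other, so that check does not cover the counting of both libraries of a clone. The members and gene lists were chosen with earlier results of these data known. The genes named are the 10, the targeted genes, listed pathway genes called above 2-fold for genotype, and the 2 genes most like each of the 10 with a mean of at least 5 CPM in both multiplexes, and other genes are marked where named. P-values of the main fits measure the spread between libraries, with both libraries of a clone counted. Those of the blocked fits and of the clone term measure the spread left within clones and WT replicates. The fits with libraries summed per clone or with clone as a random effect take in the spread between clones.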

Additional observations from a re-analysis of the deposited data

How the results depend on the processing

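The direction of the ATRi estimates over each whole multiplex for the 10 genes, and of the genotype estimates for *Tdgf1*, *Bmp4* and *Id2* in *Ccnc* KO cells did not turn under the alternatives run, whereas counts of called genes did move. The share of all genes called is not given beside the counts that follow. For the genotype effect in *Ccnc* KO cells (3 called), no filter on low counts gave 6, DMSO libraries alone 0 and libraries summed per clone 1, and leaving out a replicate gave 0 to 5 (0 without WT replicate 1, 5 without D1). In *Cdk8* KO cells (1 called) there were 2 without the filter, 2 with WT replicate 2 under ATRi, and 0 each for DMSO alone, sums per clone and clone as a random effect, and leaving out a replicate gave 0 to 3 (0 without WT replicate 1, 3 without B9). The ATRi effect (0 called) had 5 (DESeq2), 7 (no filter) and 2 (replicate block) in the *Ccnc* multiplex, and 2 (DESeq2), 8 (replicate block) and 3 (block with WT replicate 2 under ATRi) in the *Cdk8* multiplex. Within *Ccnc* KO clones (0 called) these were 3 (DESeq2), 6 (no filter) and 1 (replicate block), and within *Cdk8* KO clones (0 called) 1 (DESeq2) and 6 (replicate block). The replicate block changed no interaction call of the 10 genes, though 4 other genes were called by it in the *Cdk8* multiplex. Among the blocked fits, the *Ccnc* multiplex (2 called) had 5 by DESeq2, 7 without the filter and 0 to 3 with a replicate left out, and *Ccnc* KO clones (1 called) had 2, 5 and 1 to 3. The *Cdk8* multiplex (8 called) had 4 to 8, and *Cdk8* KO clones (6 called) 3 to 8, both lowest without H4. Differences among *Ccnc* KO clones (2 called) were 4 without the filter and 1 to 3 with a clone left out, and among *Cdk8* KO clones (9 called) 6 to 9. Estimates near 0 changed sign. In *Ccnc* KO cells these were *Nodal* (-0.0051 in DMSO alone, and -0.0423 to 0.1293 with a replicate left out, lowest without WT replicate 1) and *Id1* (0.0335 in sums per clone, and -0.0978 to 0.0124 with a replicate left out). In *Cdk8* KO cells sums per clone gave *Smad7* 0.0169 and *Id3* 0.0462, and clone as a random effect gave *Id2* -0.0921. With a replicate left out there, *Nodal* ran from -0.0931 to 0.1384 and *Lefty2* from -0.9928 to 0.012, with these turns without WT replicate 1. *Lefty1* ran from -0.2722 to 0.6801 (lowest without C8), *Smad7* from -0.1475 to 0.0486 (highest without H4) and *Id2* from -0.4147 to 0.4643 (lowest without H4). The cause was not tested. The interaction could not be fitted without WT replicate 1, the one WT replicate with both treatments. The wide *Cdk8* KO intervals of *Lefty1*, *Lefty2* and *Id2* limit what 3 clones and 3 WT libraries can show there.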
